A study of Mus musculus with 16 samples.

Results

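Mas-related G protein-coupled receptors are a rodent-expanded family of receptors of sensory neurons and of some immune cells, and 6 of its genes were followed in mouse skin: Mrgprg, Mrgpre, Mrgprb1, Mrgprb2, Mrgprf and Mrgprh. They were matched by gene symbol among 23930 targeted transcripts and chosen with earlier results of the same libraries known, above all the level of Mrgprg in 1 of the groups. The files list 20 targets of this family, Mas1 included, and the 14 that were not chosen are given by counts.

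Several of these receptors are known from itch, pain and mast cell biology. Mrgprb2 is the mast cell receptor through which cationic peptides and drugs trigger degranulation without IgE, the counterpart of human MRGPRX2. Mrgprb1 is also known from connective tissue mast cells, while Mrgpre, Mrgprf, Mrgprg and Mrgprh are receptors with no settled ligand.

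Whole skin of 16 mice aged 12 weeks was compared, 4 per group. All groups carried Zc3h12a(loxP/loxP), a floxed allele of the gene for the RNase MCPIP1. Control mice had no Cre, EKO mice carried Krt14Cre(Tg/Wt), which acts in keratinocytes, MKO mice carried LysMCre(Tg/Wt), which acts in myeloid cells, and EMdKO mice carried both. The LysM-Cre sits in the Lyz2 gene, so carriers differ from the others at that locus as well. RNA was read as 1 amplicon per transcript, and levels are given as counts and as counts scaled to a common library total (CPM). Levels of different genes are not compared with each other.

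Depth ran from 6962474 to 12086327 counts per library. The targeted gene Zc3h12a averaged 24.7 ± 4.99 CPM (SD, n = 4) in the mice without Cre and 26.5 ± 7.55 in MKO mice. It averaged 8.63 ± 2.10 CPM in EKO mice and 5.32 ± 0.617 in EMdKO mice. Whole-skin Zc3h12a therefore separated the Krt14-Cre carriers from the rest and not the MKO mice from Control, and where its amplicon lies relative to the deleted part is not given in the sources used here. Lyz2 averaged 395 ± 103 CPM in Control mice and 370 ± 163 in EKO mice, against 218 ± 36.3 and 230 ± 51.4 with LysM-Cre alone and with both Cre. Krt14 averaged 1131 ± 104 CPM without Cre, 955 ± 338 with LysM-Cre, 2382 ± 1409 with Krt14-Cre and 1596 ± 396 with both.

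The genes lie on 2 chromosomes of GRCm38. Mrgprg (chromosome 7, 143763710 to 143766993, minus strand, 2 exons of which 1 is coding) has Mrgpre (143778363 to 143784500, minus strand) 11370 bases away. Mrgprb1 (48444113 to 48456342, minus strand) and Mrgprb2 (48550965 to 48558086, minus strand) sit in the Mrgpra and Mrgprb cluster of the same chromosome, and Mrgprf (145300828 to 145309557, plus strand) lies further along it. Mrgprh (12876034 to 12877977, plus strand) is on chromosome 17, 7884 bases from Mas1. Among the members Mrgprb1 and Mrgprb2 are the closest pair, with 73.0% identical coding bases and a longest shared exact run of 25 bases. Between the other member pairs the longest run was 14 bases. Mrgprb1 shares longer runs with genes outside the 6, of 32 bases with Mrgpra4, 32 with Mrgprb4 and 26 with Mrgprb3, and the longest of Mrgprb2 with the others compared was 23 bases, with Mrgprb3. Whether reads of an amplicon could fit more than 1 of these genes cannot be told from the files, so values of Mrgprb1 and Mrgprb2 carry that uncertainty.

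The promoters of Mrgprg and of the mast cell pair are shown because these 3 genes carry the results that follow. Each is the RefSeq window of GRCm38 from 250 bases before to 50 after the gene's start, read 5′ to 3′ on the gene's strand. Capitals mark matches, on either strand, to 4 of 7 motifs searched. These are GGAAGT of PU.1 and ETS factors, TTCNNNGAA of the interferon GAS element, the GATA motif AGATAA and the AP-1 motif TGANTCA.
Mrgprg: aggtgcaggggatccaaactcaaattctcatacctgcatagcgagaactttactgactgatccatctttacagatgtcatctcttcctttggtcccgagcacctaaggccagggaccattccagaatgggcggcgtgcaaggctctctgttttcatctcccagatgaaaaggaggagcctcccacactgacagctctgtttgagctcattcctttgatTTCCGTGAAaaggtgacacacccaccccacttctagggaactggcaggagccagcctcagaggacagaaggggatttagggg
Mrgprb1: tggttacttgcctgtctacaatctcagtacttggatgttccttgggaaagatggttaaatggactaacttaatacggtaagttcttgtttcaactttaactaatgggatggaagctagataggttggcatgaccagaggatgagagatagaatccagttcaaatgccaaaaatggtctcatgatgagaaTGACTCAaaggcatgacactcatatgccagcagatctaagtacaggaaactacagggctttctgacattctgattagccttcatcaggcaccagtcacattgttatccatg
Mrgprb2: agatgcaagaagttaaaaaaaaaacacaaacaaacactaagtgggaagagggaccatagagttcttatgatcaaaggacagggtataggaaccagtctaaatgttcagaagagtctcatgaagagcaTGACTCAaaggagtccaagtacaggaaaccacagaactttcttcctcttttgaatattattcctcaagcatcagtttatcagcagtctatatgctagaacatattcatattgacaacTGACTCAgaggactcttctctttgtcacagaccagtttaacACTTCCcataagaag

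The Mrgprg window holds 1 match to TTCNNNGAA, the interferon GAS letters, starting at -32, as do 8.30% of 32851 promoters. The Mrgprb1 window holds 1 match to the AP-1 letters TGANTCA, at -61, and the Mrgprb2 window holds 2, the first at -123, against 7.81% of promoters with any. The Mrgprb2 window also holds 1 match to GGAAGT, found in 23.8% of promoters. The longest run shared by the Mrgprb1 and Mrgprb2 windows was 13 bases. Of the other motifs, AGATAA (11.2% of promoters), TATAAA (13.6%) and TTGCNNAA (10.8%) had no match in the 3 windows, and CANNTG (72.3%), left in lower case, had 2 matches in Mrgprg, 2 in Mrgprb1 and 1 in Mrgprb2. A match is a string of letters and not a measured site.

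Mrgprg was the member with the widest range between groups. In Control it had 5, 1, 7 and 1 counts in mice 1 to 4, and in EKO 1, 1, 5 and 6. In MKO it had 61, 142, 234 and 28 counts, and in EMdKO 29, 6, 32 and 23. The 8 mice with LysM-Cre held 95.4% of all Mrgprg counts, 555 against 27 in the other 8 mice. Most of that share is the MKO level for which the gene was chosen, since the 4 MKO mice alone held 465 counts (79.9%). These counts are not scaled for depth.

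Mrgprg averaged 0.386 ± 0.290 CPM in Control mice and 0.396 ± 0.356 in EKO mice (SD, n = 4 each). It averaged 14.7 ± 10.6 CPM in MKO mice and 2.15 ± 0.993 in EMdKO mice. The lowest MKO mouse, at 3.51 CPM, lay above the highest mouse of every other group. Groups failed to overlap for 3.08% of all tested genes in MKO against Control, 10.3% in EKO against MKO, 5.99% in EMdKO against MKO and 3.67% in EMdKO against Control. EMdKO mice were all above the Control mice, but EMdKO mouse 2 at 0.727 CPM was below EKO mouse 4 at 0.788, so 15 of 16 pairs of an EMdKO and an EKO mouse were higher in EMdKO. The order of the groups was Control and EKO, which overlapped, then EMdKO, then MKO.

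**Figure D1:**
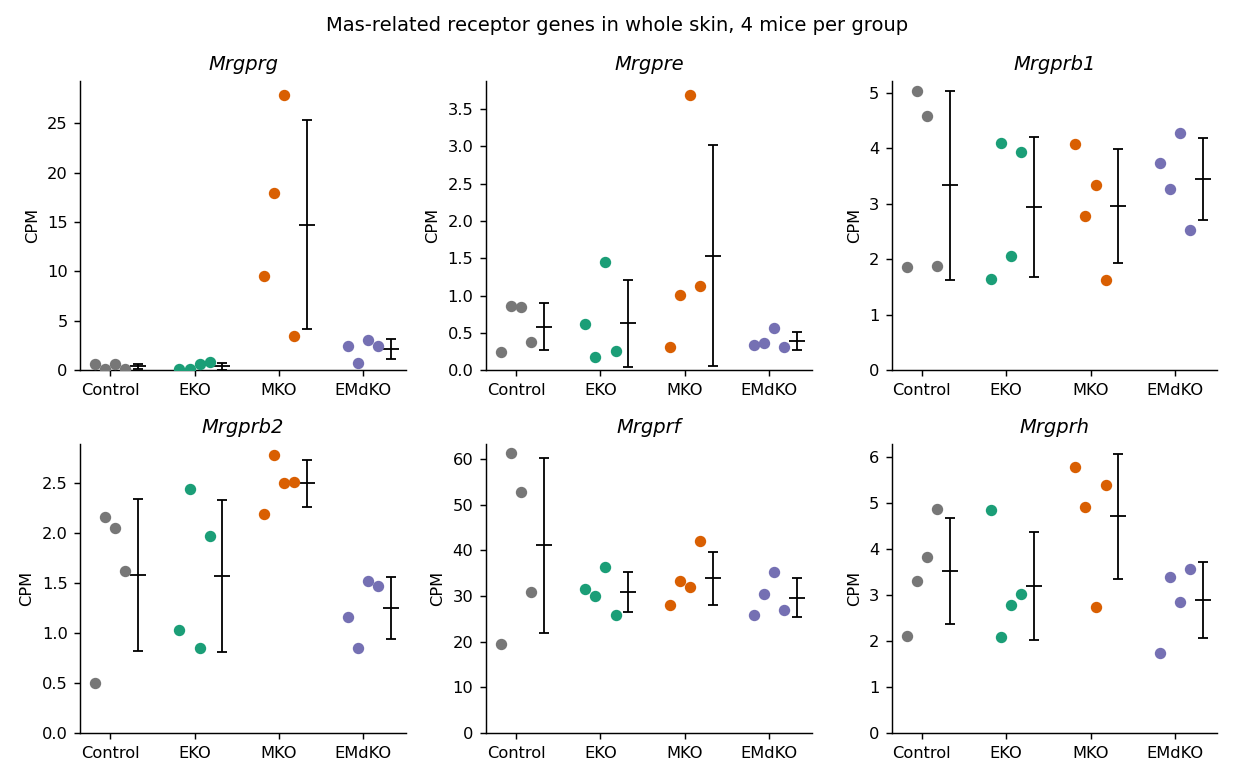
CPM of the 6 receptor genes in each mouse (points, mice 1 to 4 from left to right) with the mean ± SD of the 4 mice beside them, on linear axes that start at 0 and differ between panels. The 4 MKO mice span 3.51 to 27.9 CPM for Mrgprg, and the Control and EKO mice stay at or below 0.788.

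The level in MKO is the value for which the gene was chosen and is given without a test. The mean in MKO was 38.2 times that of Control, and the log2 fold change fitted with edgeR was 5.14 ± 0.73 (SE). Because Control sits at a few counts, the size of that fold is loosely set. In this comparison 0.0293% of 13633 genes were called at an adjusted p under 0.05 in the whole table (4 genes), Mrgprg among them. Nothing is read from that, since the choice of the gene used it. The call was lost when any 1 of the Control mice was left out, with the compared groups alone, with limma-voom and with a hair covariate, while the log2 fold change stayed between 4.63 and 5.54.

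EMdKO against EKO shares no library with that comparison. Mrgprg passed the expression filter through the LysM-Cre carriers alone and was chosen with earlier results of these libraries known. Its p values and interval below are therefore a description and not independent support. Mrgprg was 5.42 times higher in EMdKO, a log2 fold change of 2.53 ± 0.76 (95% interval 0.92 to 4.13), which did not pass edgeR's quasi-likelihood test after Benjamini-Hochberg adjustment over the table (adjusted p = 0.625). In this comparison 0.0147% of genes were called. An exact two-sided permutation test of the CPM gave p = 0.0571, and 0.377 adjusted over 33 such tests. Against Control, EMdKO was 5.57 times higher, with a log2 fold change of 2.38 ± 0.75 and an edgeR adjusted p of 0.415, where 0.0293% of genes were called. The exact permutation p was 0.0286, the smallest that 4 against 4 mice can give, and 0.314 after adjustment. These Control mice are also those of MKO against Control.

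EKO and Control gave nearly equal Mrgprg levels, with a log2 fold change of -0.14 ± 0.91 and an interval from -2.07 to 1.78 (edgeR adjusted p = 0.981). That interval is wide, because both groups hold 1 to 7 counts per mouse. In the comparisons with MKO the log2 fold change was -2.76 ± 0.60 in EMdKO over MKO and -5.28 ± 0.74 in EKO over MKO, where 0.858% of genes were called. The difference between the LysM-Cre effects with and without Krt14-Cre was -2.61 ± 1.13 on the log2 scale. It holds the MKO level for which the gene was chosen, so it is given without a test, and the effects are not shown to differ. In that comparison 0% of all genes were called by edgeR and DESeq2 called 3. At an unadjusted p under 0.05 that interaction had 465 genes, 3.41% of the table. In whole skin, fewer cells of a type and less RNA per cell cannot be told apart.

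Other transcripts differed between MKO and Control beside Mrgprg. The summed level of 16 hair shaft and inner root sheath genes spanned 33.7 to 40748 CPM in Control and 18.3 to 648 in MKO, and all 16 had a negative log2 fold change in MKO against Control, with none called. With the mean log2 CPM of these hair genes, rather than their sum, as a covariate the Mrgprg log2 fold change was 5.06. The call of Mrgprg was lost in that fit. Of 13 tested macrophage markers, 8 were positive, and Marco, a scavenger receptor of macrophages, passed the edgeR test (log2 4.77 ± 0.52, adjusted p = 0.00123). Marco also rose in EMdKO over EKO (5.96 ± 0.55, adjusted p = 9.85e-05). The summed macrophage level itself ran from 517 to 677 CPM in Control and from 480 to 725 in MKO. Beyond the fit with the hair covariate, the part of these transcripts in the Mrgprg result was not tested.

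**Figure D2:**
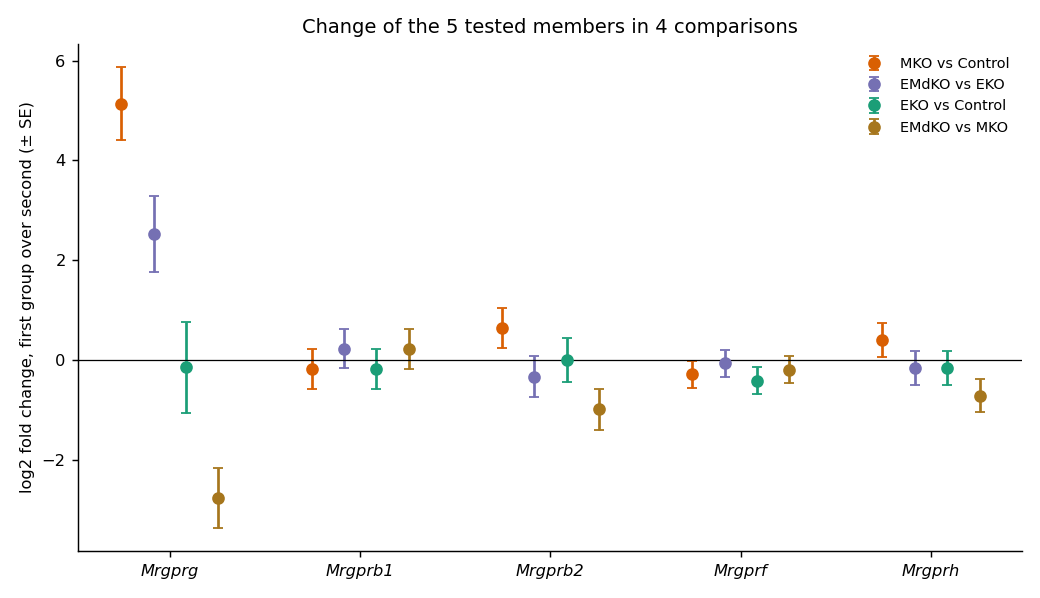
Fitted log2 fold change (point) with its SE (bar) for the 5 members that passed the expression filter, in 4 comparisons named in the legend. Mrgprg stands at 5.14 in MKO over Control and 2.53 in EMdKO over EKO, and the other 4 members lie between -0.99 and 0.65.

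None of the tested genes around Mrgprg passed the test in MKO over Control. Osbpl5, an oxysterol-binding protein gene 6702 bases away, was 150 ± 74.7 CPM in Control and 184 ± 20.5 in MKO (log2 0.29 ± 0.27, edgeR adjusted p = 0.762). Nadsyn1, of NAD synthesis, had a log2 fold change of 0.12 ± 0.26 (adjusted p = 0.918), and Dhcr7, of cholesterol synthesis, -0.05 ± 0.27 (adjusted p = 0.974). The decoy TRAIL receptor genes on the other side gave 0.06 ± 0.32 for Tnfrsf22 (adjusted p = 0.974) and -0.33 ± 0.22 for Tnfrsf23 (adjusted p = 0.670).

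**Figure D3:**
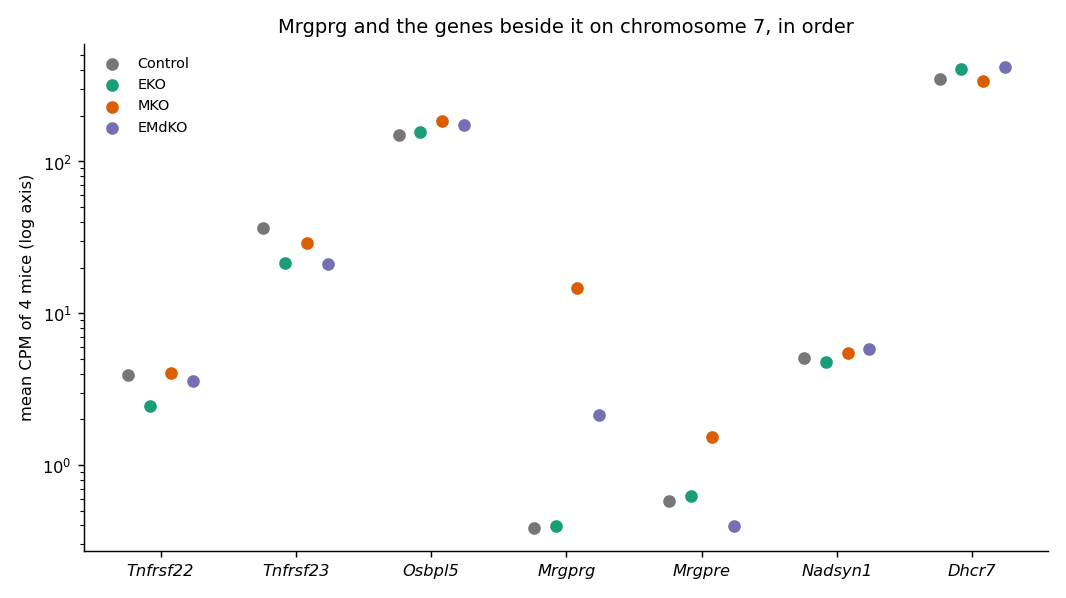
Mean CPM of 4 mice per group on a log axis for Mrgprg and the 3 listed genes on each side of it, in chromosome order. Mrgprg goes from 0.386 in Control to 14.7 in MKO, while Osbpl5 goes from 150 to 184.

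Mrgpre, the family gene closest to Mrgprg on the chromosome, was too low for the fit. It had 2, 6, 9 and 3 counts in Control, 6, 2, 12 and 2 in EKO, 2, 8, 31 and 9 in MKO, and 4, 3, 6 and 3 in EMdKO. MKO mouse 3 was highest for Mrgpre and for Mrgprg, and its other MKO mice lay within or near the range of the Control mice. The mean levels were 1.54 ± 1.48 CPM in MKO mice against 0.582 ± 0.317 in Control mice, with 0.628 ± 0.585 in EKO mice and 0.395 ± 0.119 in EMdKO mice. MKO against Control gave an exact permutation p of 0.171, and EMdKO against MKO 0.143. Fitted without the filter, the log2 fold change of MKO over Control was 1.38 ± 0.68 (edgeR adjusted p = 0.640).

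Mrgprb2, the mast cell receptor, had 4, 15, 22 and 13 counts in Control, 10, 28, 7 and 15 in EKO, 14, 22, 21 and 20 in MKO, and 14, 7, 16 and 14 in EMdKO. In CPM the MKO mice were at 2.19, 2.78, 2.50 and 2.51, and the Control mice at 0.495, 2.16, 2.06 and 1.62. The highest Control mouse was thus just below the lowest MKO mouse. The mean was highest in MKO mice at 2.50 ± 0.239 CPM, against 1.58 ± 0.761 in Control mice, 1.57 ± 0.759 in EKO mice and 1.25 ± 0.312 in EMdKO mice.

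MKO did not overlap Control or EMdKO for Mrgprb2, as was so for 3.08% and 5.99% of all tested genes in these comparisons. The log2 fold change was 0.65 ± 0.40 in MKO over Control (95% interval -0.20 to 1.51, edgeR adjusted p = 0.635) and -0.99 ± 0.40 in EMdKO over MKO (interval -1.84 to -0.13, adjusted p = 0.575). Both exact permutation p values were 0.0286, and 0.314 adjusted over the 33 tests. In EMdKO over MKO 0.00734% of genes were called, and Mrgprb2 was not one of them.

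Mrgprb1, its closest relative, showed no such order. It had 15, 35, 49 and 15 counts in Control, 16, 47, 17 and 30 in EKO, 26, 22, 28 and 13 in MKO, and 45, 27, 45 and 24 in EMdKO. The means were 3.34 ± 1.71, 2.94 ± 1.26, 2.96 ± 1.03 and 3.45 ± 0.745 CPM in that order of groups, and all groups overlapped. The log2 fold change of MKO over Control was -0.18 ± 0.40 (interval -1.03 to 0.67, edgeR adjusted p = 0.917). The interval holds changes in both directions, so a difference of that size was not detectable with these mice.

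Mast cells were present in the skin by their defining genes. The summed level of 16 mast cell genes, which hold neither receptor, ran from 229 to 378 CPM in Control mice, from 246 to 289 in EKO mice, from 263 to 428 in MKO mice and from 227 to 379 in EMdKO mice. Of 12 tested, 8 were positive and 4 negative in MKO over Control, with a median log2 of 0.14 and none called, where the median over all tested genes was 0.0015. The mast cell protease genes Cma1 (log2 0.32 ± 0.27, edgeR adjusted p = 0.738), Mcpt4 (0.11 ± 0.29, adjusted p = 0.937) and Tpsb2 (0.07 ± 0.28, adjusted p = 0.962) did not pass. None of the 12 was called in EMdKO over EKO, EKO over Control or EMdKO over MKO either. Of all tested genes, 0.0293% were called in MKO over Control and 0.0147% in EMdKO over EKO. The shares were 0% in EKO over Control and 0.00734% in EMdKO over MKO, so a count of 0 is near the background.

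Across the 16 mice Mrgprb1 followed the mast cell score with a Pearson r of 0.66 (permutation p = 0.00561, adjusted over 32 relations 0.0687) and a Spearman rho of 0.72 (permutation p = 0.00272, adjusted 0.0437). Without the 2 mice farthest from the median score r was 0.65, and after centring within groups it was 0.72. Mrgprb2 gave a Pearson r of 0.47 (permutation p = 0.0652, adjusted 0.163) and a rho of 0.51 (permutation p = 0.0435, adjusted 0.199), with r at 0.54 without the 2 farthest mice. The relation of Mrgprb1 passed by rank alone. Per 1000 CPM of mast cell genes, Mrgprb2 was at 8.40 ± 2.19 in MKO mice, 5.23 ± 2.19 in Control mice, 5.64 ± 2.46 in EKO mice and 4.45 ± 0.806 in EMdKO mice. On this scale MKO mice ran from 5.13 to 9.75 and Control mice from 2.06 to 7.09, so these groups overlapped.

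**Figure D4:**
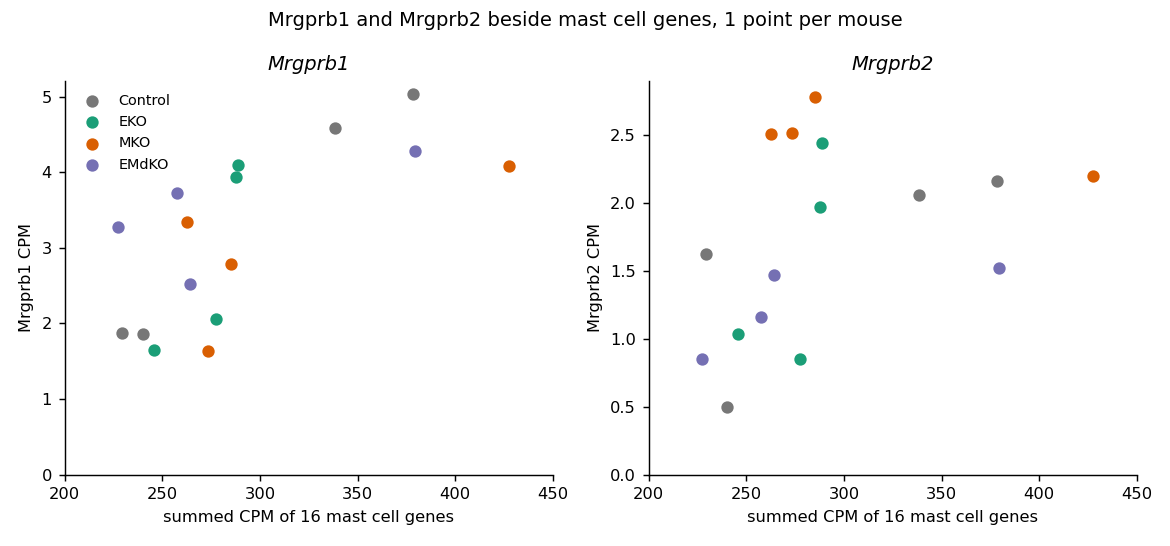
CPM of Mrgprb1 and Mrgprb2 against the summed CPM of 16 mast cell genes, 1 point per mouse, colours by group, vertical axes from 0. Mrgprb1 rises with the mast cell sum (r of 0.66 on log2 values), and the 4 MKO mice hold 2.19 to 2.78 CPM of Mrgprb2 at a sum between 263 and 428 CPM.

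Mrgprb2 also followed the T cell list, with a Pearson r of 0.66 (permutation p = 0.00556, adjusted 0.0687) and a rho of 0.71 (permutation p = 0.00273, adjusted 0.0437). Without the 2 mice farthest from the median r was 0.37, so the pooled r rests in part on those mice, while after centring within groups it was 0.71. Schwann cell markers moved beside Mrgprb2 in the comparisons that share the MKO mice. All 10 were positive in MKO over Control and all 10 negative in EMdKO over MKO. All 10 were also negative in EKO over MKO, where Mrgprb2 stood at -0.65 ± 0.40. None of these markers was called, while 0.0293%, 0.00734% and 0.858% of all tested genes were called in these comparisons. The summed Schwann cell levels were 594 to 960 CPM in Control and 752 to 1295 in MKO. In EMdKO over EKO 7 of the 10 were positive, while Mrgprb2 stood at -0.33 ± 0.41. The Pearson r of Mrgprb2 with the Schwann cell list was 0.56 (permutation p = 0.0252, adjusted 0.135), and 0.34 after centring within groups. Muscle lists moved likewise, with 7 of 7 skeletal and 8 of 9 smooth muscle markers positive in MKO over Control. In EMdKO over MKO 6 of 7 and 7 of 9 were negative. The part of these cell types in the Mrgprb2 values was not tested.

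Mrgprf was the best measured member, with 158 to 564 counts per mouse. Its CPM was 19.6, 61.3, 52.7 and 30.9 in Control, 31.6, 30.1, 36.3 and 25.7 in EKO, 28.1, 33.2, 32.1 and 42.0 in MKO, and 25.9, 30.5, 35.3 and 26.9 in EMdKO. The Control mice spread more widely than any knockout group and enclosed all 12 knockout mice. Against Control the log2 fold change was -0.41 ± 0.27 in EKO (edgeR adjusted p = 0.792), -0.28 ± 0.27 in MKO and -0.47 ± 0.27 in EMdKO (interval -1.04 to 0.10, adjusted p = 0.704). In EKO against Control 0% of genes (0 genes) were called, 940 had an unadjusted p under 0.05 in edgeR and DESeq2 called 59. Over the 16 mice Mrgprf had a Pearson r of 0.65 with the Langerhans cell list (permutation p = 0.00644, adjusted 0.0687). The Spearman rho was 0.65 (permutation p = 0.00783, adjusted 0.0758), and neither passed after adjustment. Pearson r was 0.53 without the 2 mice farthest from the median and 0.88 after centring within groups. That list is summed, and over all mice Cd74 adds 2859 CPM to it and H2-Aa 896, against 12.8 for Cd207.

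Mrgprh had 17 to 47 counts per mouse. Its CPM was 2.11, 3.31, 3.83 and 4.87 in Control, 4.85, 2.09, 2.79 and 3.02 in EKO, 5.80, 4.93, 2.74 and 5.40 in MKO, and 1.74, 3.39, 2.85 and 3.57 in EMdKO. MKO had 3 mice above every EMdKO mouse and 1 below some of them. The log2 fold change was 0.41 ± 0.34 in MKO over Control (edgeR adjusted p = 0.730) and -0.71 ± 0.34 in EMdKO over MKO (interval -1.42 to 0.01, adjusted p = 0.678).

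Genes most like each member over the 16 mice were ranked among 13340 by Pearson r of log2 CPM, as a description. Those for Mrgprg were Tusc1 (0.87), Cxcl13 (0.86), Jchain (0.85), Fbxl21 (0.83) and Elf2 (0.80). Cxcl13, a B cell chemoattractant, averaged 138 ± 88.9 CPM in MKO mice and 74.8 ± 25.1 in EMdKO mice, against 31.5 ± 21.7 in Control mice and 12.2 ± 1.22 in EKO mice. Jchain, the joining chain of secreted IgA and IgM, averaged 12.8 ± 13.2 CPM in MKO mice, 1.99 ± 1.19 in EMdKO mice, 0.405 ± 0.312 in Control mice and 0.293 ± 0.272 in EKO mice. The 16 libraries share the group differences, so these r values are not independent of them.

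For Mrgprb2 the leading genes were Alox5, the 5-lipoxygenase of leukotriene synthesis (r of 0.83), Agtrap (0.80) and Olfr99 (0.79). Mrgprb1 was nearest to Tm9sf3 (0.79), Parp14 (0.76) and Abhd4 (0.76). Mrgprf was nearest to Rab3il1 (0.96), Cdk14 (0.88) and Morrbid (0.87), and Mrgprh to Ppp1r11 (0.87), Esam (0.86) and Rem1 (0.86).

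Of the 14 other family targets 3 passed the filter, and none was called in any comparison. Of all tested genes 0.858% were called in EKO over MKO and at most 0.0293% in each other comparison. A count of 0 is therefore near the background. Mrgpra6 had 57, 27, 23 and 27 counts in Control and 7, 8, 14 and 12 in MKO, with every MKO mouse below every Control mouse in CPM (log2 -1.62 ± 0.37, edgeR adjusted p = 0.331). Such a lack of overlap was seen for 3.08% of all tested genes. Mrgprb3 had 18 to 76 counts per mouse and Mrgpra4 1 to 14. Mrgpra1 and Mrgprb4 had no count in any library, which allows up to 3 counts at the 95% level, and Mrgprd, a receptor of skin-innervating neurons, had at most 2, as did Mrgprx1, and Mas1 at most 3. Sensory neuron genes were also near 0: Scn9a and Trpa1 had no count, and Scn10a had at most 1.

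Genes that could act with these receptors were counted by list. None of 5 tested ligand genes, 20 G protein and calcium signalling genes, 11 mast cell mediator genes and 10 itch receptor and cytokine genes was called in MKO over Control or EMdKO over EKO. Of all tested genes, 0.0293% and 0.0147% were called in these comparisons, so a count of 0 is near the background. Of the signalling genes 16 of 20 had a positive log2 fold change in MKO over Control, and Gnaq, a Gq subunit, stood at 0.08 ± 0.15 (edgeR adjusted p = 0.893). The other G protein subunit genes Gna11 (0.0054 ± 0.15), Gnai1 (0.03 ± 0.26) and Gnai2 (-0.06 ± 0.18) were as close to 0. The histamine receptor gene Hrh2 stood at 0.46 ± 0.32 in MKO over Control (adjusted p = 0.682), and Hrh1 and Hrh4 had at most 1 and 2 counts. Il31ra, the receptor for the itch cytokine IL-31, stood at 0.67 ± 0.48 in MKO over Control (adjusted p = 0.692) and 0.96 ± 0.48 in EMdKO over EKO (adjusted p = 0.757). Defb14, a beta-defensin, was 2.11 ± 1.57 CPM in Control and 14.0 ± 9.44 in EKO, and it stood at -0.06 ± 0.77 in MKO over Control (adjusted p = 0.990). Among the other ligand genes Tac1, the substance P precursor, had at most 3 counts in any mouse and Camp, the cathelicidin, at most 9. Defb4 had up to 32 counts, and it was listed without a count in all MKO mice.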

How the data were processed

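Skin RNA of 16 mice was made into amplicon libraries (Ion AmpliSeq Transcriptome Mouse kit), as the labels' protocols state. The authors deposited raw counts of reads per target; HTSeq 0.6.0 and DESeq2 1.18.1 are named in the submitters' processing notes. Aligner, build and annotation are not given in the sources used here. The 5 HTSeq summary lines, 3.11 to 5.25% of reads, were left out. Symbols came from RefSeq (GRCm38.p6) and GENCODE vM21.

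Groups came from the labels. Counts were fitted by edgeR's quasi-likelihood method (version 4.0.16, R 4.3.3; TMM scaling, default filter, 1 mean per group, 12 residual degrees of freedom), with Benjamini-Hochberg adjustment over 13633 genes and a threshold of 0.05 in 7 comparisons. Standard errors are derived from the test statistic, so intervals are approximate. The fit was tested on simulated data. Single levels were compared by exact permutation over 70 assignments, and 32 relations between 4 members and 8 marker lists by 100000 resamples. DESeq2 1.42.0, limma 3.58.1, other scaling and filters, covariates, a replicate block and each library left out were the alternatives.

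Of the 6 members 5 passed the filter, Mrgprg through the LysM-Cre carriers alone. The members, gene lists and motifs were chosen with earlier results of these data known. Named genes were the members, the first 4 or called genes of a list (marker lists mostly by counts and sums), the nearest neighbours and the genes most like a member. The mice's numbers may mark nothing shared: of 24 same-number pairs, 7 had correlated deviations over 0.1. The r of these pairs ran from -0.543 to 0.61. Nothing says how the mice were bred or housed together, so p-values measure the spread between these samples. Counting intervals and floors cover counting error only.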

Additional observations from a re-analysis of the deposited data

How the results depend on the processing

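Mrgprg was chosen for its MKO level, so whether it is called in a comparison with MKO is given as a count of the fit and not as a test. It kept its sign in MKO over Control in every alternative run. The count of called members there fell from 1 to 0 with the hair covariate (Mrgprg log2 5.06), with the compared groups alone (5.14) and with limma-voom (5.05). Leaving out single mice gave 0 to 1 called members (0 without any 1 of the Control mice) and a log2 of 4.63 to 5.54. In EMdKO over MKO the count rose from 0 to 1 with DESeq2 (Mrgprg log2 -2.77), and leaving out mice gave 0 to 1 and -3.08 to -2.25, with the count of 1 found without EKO mouse 1. The EMdKO minus EKO difference in Mrgprg CPM ran from 1.45 to 2.22 and the EMdKO minus Control difference from 1.46 to 2.24, where 3 against 4 mice cannot give a p below 0.0571. The cause was not tested.

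With the mouse number as a replicate block Mrgprg stood at 5.15 in MKO over Control, Mrgprb2 in EKO over Control at 0.0136, and the genes called in EKO over MKO went from 117 to 46. Signs that turned were those of small values. Mrgprb2 in EKO over Control, -0.000698, became 0.00586 with RLE scaling, 0.041 with library totals, 0.020 without a filter, 0.12 with the mast cell covariate, 0.0101 with the compared groups alone, 0.00751 with DESeq2, and -0.31 to 0.20 leaving out mice. Mrgprb1 became 0.079 in EKO over Control with the mast cell covariate (-0.40 to 0.068 leaving out mice) and -0.029 in EMdKO over Control with limma-voom (-0.15 to 0.30), and in MKO over Control ran from -0.38 to 0.068. Mrgprf in EMdKO over EKO became 0.044 with the hair covariate (-0.16 to 0.025). Leaving out mice, Mrgprg in EKO over Control ran from -0.70 to 0.26, and Mrgprh from -0.31 to 0.13 in EMdKO over EKO and -0.43 to 0.042 in EKO over Control.

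Over the whole table DESeq2 called 116 genes in MKO over Control against 4, 73 in EMdKO over Control against 4, 147 in EMdKO over MKO against 1, 628 in EKO over MKO against 117, 59 in EKO over Control against 0 and 9 in EMdKO over EKO against 2. Limma-voom called 0 in MKO over Control and 1591 in EKO over MKO. Without EKO mouse 1 EKO over Control had 127 called genes, EMdKO over MKO 95, EKO over MKO 510 and EMdKO over Control 40, and EKO over MKO fell to 8 without MKO mouse 3. Depth limits Mrgprg in Control and EKO and Mrgpre throughout.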
